A study of Mus musculus with 18 samples.

Results

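RNA of 3 whole, unsorted tumours grown from GL261 GFP cells in Pfp/Rag2 -/- mice was compared with RNA of the same cells in culture. Genes were kept when the deposited normalized count reached 10 in at least 3 of these 6 libraries, which 15067 of the 48795 genes in the table did, and the 6 libraries are part of 18. A normalized count is a gene's read count divided by 1 scaling factor per library. GL261 is a mouse glioma line, and the GFP version carries green fluorescent protein so that its cells can be sorted from the cells of a host. The cultured cells were the stock used for injection, grown in DMEM with serum, and are labelled as sorted for GFP. The tumours came from symptomatic mice injected with GL261 GFP+ cells. They were digested with collagenase and filtered, and the unsorted libraries were made from all cells in that suspension. Pfp/Rag2 -/- mice are without perforin, with which killer cells open holes in their targets, and without Rag2, which T and B cells need to assemble their antigen receptors. NK cells can still form in such mice but lack perforin. The other groups used here, 3 libraries each, were sorted GFP+ cells of Pfp/Rag2 -/- tumours, unsorted tumours of wild-type C57BL/6 (WT) mice, and the GFP- and GFP+ cells sorted from WT tumours. All tumours carry the same injected line, and the site of injection is not named in the labels. The labels give 6 mice per host and triplicate libraries, with nothing on pooling, so p-values measure the spread between these libraries only.

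A tumour is a mixture. Its RNA comes from cancer cells and from macrophages, microglia, vessels and the tissue it grew in, whereas a culture dish holds 1 kind of cell on plastic, with serum, free oxygen and ample nutrients. A rise in a tumour library can therefore be a change within cancer cells or the arrival of another cell type. In bulk RNA fewer cells of a type and less RNA per cell cannot be told apart.

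The 6 libraries held 19736255 to 21141662 reads. Pearson's r across genes was 0.980 to 0.993 among the unsorted tumours and 0.995 among the cultures, and every replicate pair differed by more than counting noise. Tumour 1 stood apart from tumours 2 and 3, with more neuron, astrocyte and oligodendrocyte RNA, and results on those cell types are given with and without it. Among the sorted GFP+ libraries replicate 1 stood apart, with NK cell markers at 17.3% of their level in WT GFP- cells against 0.296% and 0.259% in the other two. Prf1, the perforin gene, had 8, 15 and 18 reads in the unsorted Pfp/Rag2 -/- tumours, 118, 110 and 160 in the unsorted WT tumours and 0, 1 and 0 in culture. Rag2 had 5, 7 and 4 reads in the Pfp/Rag2 -/- tumours and none in the WT tumours. The labels do not say which part of either gene was deleted, so these reads do not check the genotype.

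Most genes differed between tumours and culture, and as deposited the large differences were mostly rises. Of the 15067 genes, 5898 (39.1%) were higher in the unsorted tumours and 5064 (33.6%) were lower, by limma on log2(normalized count + 1) at a Benjamini-Hochberg adjusted p under 0.05. On this scale the difference of a low gene is understated. At least 2-fold differences passed the test for 2928 genes (19.4%) in the higher direction and 1137 (7.55%) in the lower. Beyond 3 log2 units the counts were 1528 higher and 99 lower, and beyond 5 log2 units 727 higher and 4 lower. No read was seen in any culture library for 520 genes, and for 4 genes no read was seen in any tumour. A total of 1562 genes passed the filter through the tumour libraries alone and 151 through the cultures alone, and those genes had to differ. At the edge of the filter 1823 genes reached 10 in exactly 3 libraries and were kept, and 517 reached it in 2 and were left out. The median difference over all genes was 0.0544 log2 units. Quantile normalization lowered that median by 0.133 and turned the split of calls from 53.8% higher to 44.8% higher. It also turned the balance of differences of at least 2-fold, to 1998 higher and 2551 lower, and left 754 higher and 395 lower beyond 3 log2 units and 203 and 29 beyond 5. The other 4 scalings gave 2804 to 2957 genes at least 2-fold higher and 1087 to 1265 lower. Which direction prevails among 2-fold differences thus depends on the scaling.

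The WT tumours, which take no part in this comparison, gave a rough source for each gene. A gene was put in the non-tumour class where WT GFP- cells held at least 4 times the level of WT GFP+ cells, in the tumour class for the reverse, and in the shared class otherwise. The summed level of neuronal markers was 317.4 to 1275 in WT GFP- and 5560 to 5943 in WT GFP+ cells. For pericyte and fibroblast markers it was 1547 to 8926 and 13400 to 15850. Genes of such host cells can therefore fall outside the non-tumour class. Of 2075 non-tumour genes, 1375 were higher in the unsorted tumours than in culture and 358 lower, with a median difference of 1.30 log2 units. Of 1964 tumour-class genes, 814 were higher and 729 lower, with a median of 0.0777. The 10363 shared genes had 3257 higher and 3873 lower and a median of -0.0313. A further 665 genes were too low in both WT populations to class, and 452 of them were higher in the unsorted tumours, with a median of 3.31.

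**Figure D1:**
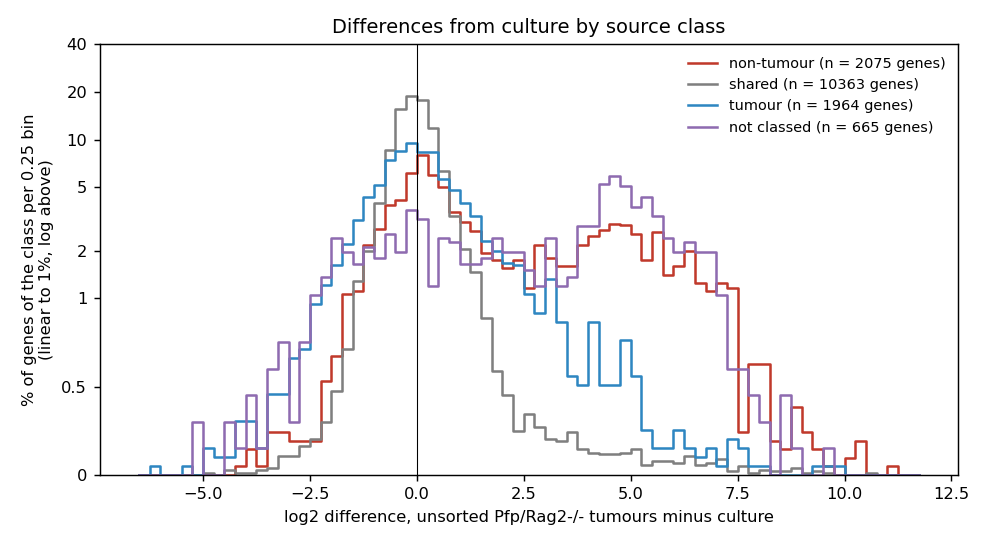
Share of genes (y axis, percent per bin of 0.25, linear to 1% and logarithmic above) by log2 difference between unsorted Pfp/Rag2 -/- tumours and culture (x axis), 1 line per source class. The shared class peaks at 0, the tumour class spreads to both sides, and the non-tumour and unclassed genes have a second hump between about 4 and 7 log2 units.

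Macrophage genes were among the largest differences, and Ctss had the largest fitted difference of all genes tested. All 20 pan-macrophage markers were tested and all 20 were higher in the tumours, with a median of 7.39 log2 units, or 6.81 when the 7 without a culture read are set to their lower bound. For 16 of them only the tumour libraries had passed the filter. Ctss, which encodes the lysosomal protease cathepsin S, read 3166, 2786 and 2615 in the tumours and 0, 0 and 0.954 in culture. With 1 culture read the ratio was 9050, with a 95% counting interval of 1620 to 358000. C1qb, a chain of the complement starter C1q, read 1509, 1260 and 1222 against no culture read, at least 468-fold higher. C1qc read 1450, 1277 and 1178 and was at least 458-fold higher. Apoe, a lipid carrier of macrophages and astrocytes, rose from 53.7 to 56.7 in culture to 11130, 8288 and 7094, a log2 difference of 7.27 (SE 0.14, adjusted p = 1.2e-09). Every tumour value of these genes lay far above every culture value. Of 14 complement genes 11 rose, 5 of which had passed through the tumours alone, and of 12 tested chemokine genes 11 rose, 9 of which had passed the filter through the tumours alone and so had to. Ccl5, a chemokine for T cells, fell, from 149.9 to 204 to 74.6, 66.1 and 69.4.

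Microglia are the resident macrophages of the brain and spinal cord. Of 12 microglial markers 10 rose, 6 of which had passed the filter through the tumours alone, and 1 fell, with a median of 3.91. Fcrls read 466, 408 and 457 in the tumours with no culture read, at least 156-fold higher. Cx3cr1, the fractalkine receptor, read 445, 354 and 332 against 2 culture reads in all, a ratio of 598 with a 95% counting interval of 165 to 4940. Sall1, a transcription factor of microglia, read 179, 128 and 94.7 against 4.77 to 9.45. The marker that fell was Sparc, a matrix protein that cultured GL261 cells also expressed, at 66490 to 67420 in culture and 7445 to 8127 in the tumours. It makes the summed microglial level higher in culture (67780 to 68850) than in the tumours (12560 to 13500).

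The level of each cell type's markers was also read as a percentage of their mean in WT GFP- cells, using markers that culture scarcely expresses. Microglial markers stood at a median of 12.2%, 10.1% and 11.3% in the unsorted Pfp/Rag2 -/- tumours and at 10.7% to 13.9% in the unsorted WT tumours. Summed, the same 10 markers did not overlap, at no more than 15.5% against 18.8%, 58.8% and 60.8% in the WT tumours. By limma 5 of 12 microglial markers were lower than in the unsorted WT tumours and none was higher. Pan-macrophage markers stood at 2.11%, 1.88% and 1.84% against 5.82% to 6.54%, and those 2 groups did not overlap. Endothelial markers reached 67.7%, 66.4% and 109% (summed, 36.8%, 36.6% and 58.0%). Pericyte and fibroblast markers reached 48.3%, 45.3% and 65.5%, and single WT GFP- libraries ran from 34.6% to 189% of their own mean. Oligodendrocyte markers, of which 3 were used, reached 103%, 78.7% and 68.7%. WT GFP- cells held 664100 to 907200 of summed pan-macrophage level and 1547 to 8926 of pericyte and fibroblast level. The percentages therefore do not compare amounts between cell types. In culture the medians of all these cell types stood under 1%, and the summed microglial markers at 2.12% to 2.43%.

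**Figure D2:**
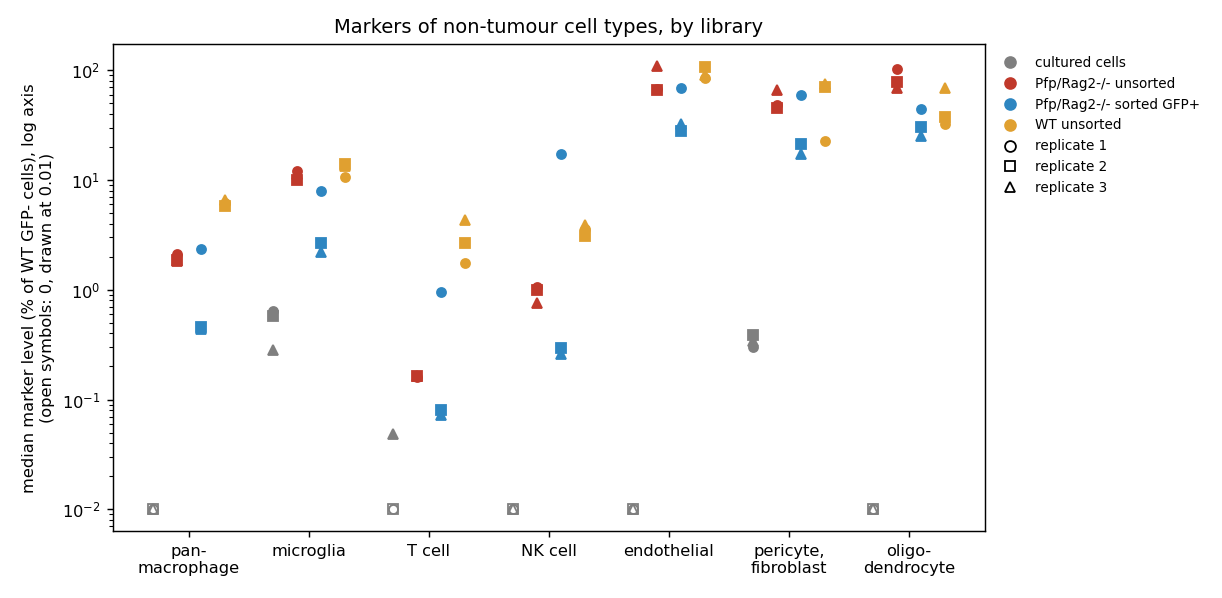
Median marker level per library (y axis, percent of the mean in WT GFP- cells, log axis, zeros drawn open at 0.01) for 7 cell types (x axis) in culture, unsorted and sorted Pfp/Rag2 -/- tumours and unsorted WT tumours. T cell markers lie near 0.16% in the 3 unsorted Pfp/Rag2 -/- tumours and between 1.77% and 4.30% in the unsorted WT tumours, while the endothelial and microglial medians of those 2 groups overlap.

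Lymphocyte RNA was scarce. Of 18 T cell markers 3 passed the filter, and of 13 NK cell markers 3. T cell markers stood at 0.160%, 0.165% and 0.164% of the WT GFP- level. Cd3g, a chain of the T cell receptor complex, read 10.7, 17.2 and 17.1 in the Pfp/Rag2 -/- tumours, 2.06 log2 units above culture (adjusted p = 0.00059), and 59.97, 60.3 and 88.0 in the WT tumours. Its difference from culture turned to -0.64 under quantile normalization. Gzma, a killer-cell protease, read 47.97, 38.05 and 67.6 with no culture read, at least 18-fold higher. Against the unsorted WT tumours 16 T cell markers could be tested and 15 were lower in Pfp/Rag2 -/- tumours.

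Most vessel genes were detected in all 3 tumours and hardly in culture, though a few were well expressed in culture. Of 19 endothelial markers 16 rose, 1 fell and 2 did not pass, with a median of 5.67, or 4.97 with the 8 genes without a culture read at their bound. For 13 of them only the tumour libraries had passed the filter, which fixed their rise, and of the other 6 markers 3 rose. Cldn5, a tight junction protein of brain endothelium, read 574, 760 and 1006 against no culture read, at least 275-fold higher. Kdr, the main VEGF receptor, read 232, 198 and 415, at least 99.0-fold higher. Tumour 3 was the highest for both. Ly6c1 was the marker that fell, from 2131 to 2210 in culture to 118 to 147. The summed endothelial level was 6639 to 7278 in culture and 9557 to 13040 in the tumours. Among 15 pericyte and fibroblast genes 13 rose, 8 of them fixed by the filter in the same way, and 2 fell. Rgs5, a pericyte signalling regulator, read 1104, 1174 and 1901 in the tumours with 1 culture read, a ratio of 4410 and a 95% counting interval of 791 to 174000. Among basement membrane collagens Col4a1 read 1549, 1557 and 2862 against 13.2 to 15.1, and Col4a2 had a log2 difference of 7.22.

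Neuronal genes were higher in the tumours, most in tumour 1. Of 15 neuronal markers 13 rose, 1 fell and 1 did not pass, with a median of 6.41, 5.89 with bounds, and 5.82 without tumour 1. The filter fixed the rise of 8 of them, and of the other 7 markers 5 rose. Snap25, part of the vesicle fusion machinery, read 1922, 482 and 407 against 2 culture reads in all, a ratio of 1490 with a 95% counting interval of 413 to 12300, or 703 without tumour 1 (194 to 5820). Gad2, which makes the transmitter GABA, read 796, 314 and 295 and no read in culture, at least 165-fold higher, or 107-fold without tumour 1. Tumour 1 was above tumours 2 and 3 by more than those differed from each other. All 20 genes of a list of glutamate receptors, GABA receptors and synaptic adhesion proteins rose, with a median of 6.05, 5.48 with bounds, and 5.54 without tumour 1. For 15 of them only the tumour libraries had passed the filter. Nlgn3, a tumour-class member of that list, rose evenly from 26.4 to 39.7 in culture to 188, 174 and 197. The summed neuronal level was 3411 to 3703 in culture and 15970, 8662 and 8383 in the tumours.

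Astrocyte and oligodendrocyte genes split, beside 39.1% of all genes higher and 33.6% lower. Of 14 astrocyte markers 8 rose, 6 of them fixed by the filter, and 6 fell, with a median of 2.87, or 2.46 and the same counts without tumour 1. Aqp4, the water channel of astrocyte end feet, read 809, 339 and 356 against 2 culture reads, a ratio of 797 with a 95% counting interval of 220 to 6590, or 550 without tumour 1 (152 to 4550). Fgfr3, a growth factor receptor that the cultured cells expressed at 7418 to 8288, fell to 565, 372 and 319, by 4.24 log2 units (SE 0.17, adjusted p = 6.3e-08). Of 14 oligodendrocyte genes 8 rose, 3 of them fixed by the filter, and 4 fell, with a median of 1.11, and without tumour 1 the counts were 8 and 5 and the median 1.12. Mobp, a myelin protein gene, read 3119, 1299 and 987 with no culture read, at least 634-fold higher, or 402-fold without tumour 1. Mbp, the gene of myelin basic protein, fell from 23650 to 26770 to 7317, 3925 and 3107. Choroid plexus RNA differed among the tumours. Ttr, the transthyretin gene, read 7512, 2327 and 14.4 with no read in culture.

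Tumour-class genes, which WT GFP+ cells held at 4 times the GFP- level or more, moved strongly both ways. The class was set in another host and is a guide to the source of the RNA, not proof of it. H19 (chr7:142575529-142578143, - strand, GRCm38), an imprinted long noncoding RNA of embryonic tissue, read 68340, 70880 and 79060 in the tumours and 71.8, 85.8 and 129 in culture. It rose by 9.60 log2 units (SE 0.18, adjusted p = 1.1e-09), and the groups were far apart. Brinp3 (chr1:146494760-146902472, + strand), a neural gene, read 931, 991 and 1146 with no read in any culture library, at least 360-fold higher. Omg (chr11:79500982-79504084, - strand), oligodendrocyte myelin glycoprotein, read 1318, 1596 and 1563 against 0.943 to 1.89, a log2 difference of 9.39 (SE 0.20). All 3 were also present in sorted GFP+ cells, where Brinp3 read 1197, 1347 and 1273.

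Several genes of the oligodendrocyte lineage and its progenitors rose in the tumour class, while the oligodendrocyte list as a whole split as given above. The summed level of that list was 44060 to 45660 in culture and 26640 to 39110 in the tumours. Gpr17, a receptor of differentiating oligodendrocyte progenitors, read 5331, 6949 and 8049 against 16.03 to 29.6, a log2 difference of 8.11 (SE 0.22). Myrf, the transcription factor of myelination, read 3136, 3524 and 3400 against at most 459 in culture, a difference of 3.00 (SE 0.07). Olig1 and Olig2, which specify the lineage, rose by 1.33 and 1.23. The surface proteoglycan genes Cspg5, Ptprz1 and Bcan rose by 4.40, 2.55 and 1.90. In the list of oligodendrocyte and neural progenitor genes, 11 were tested, 8 rose and 2 fell, beside 39.1% and 33.6% of all genes. The median was 1.90 against 0.0544 for all genes. Those that fell were Nes, the intermediate filament gene nestin, by 1.42, and the stem cell factor Sox2, by 0.16. The call for Sox2 was lost without any single library other than tumour 2, and its difference turned to 0.12 under quantile normalization.

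Receptor, Notch and WNT genes included strong rises, such as those of Kit, Wnt7b and Dll1. Kit, the stem cell factor receptor (chr5:75574916-75656722, + strand), read 5663, 5726 and 5109 against 402, 476 and 490, a difference of 3.59 (SE 0.08, adjusted p = 2.2e-09). Met, the hepatocyte growth factor receptor, rose from 1447 to 1477 to 3676, 3682 and 3369. Of 22 growth factor receptor and ERK feedback genes 12 rose and 5 fell, with a median of 0.212, beside 39.1% and 33.6% of all genes. Wnt7b, a WNT ligand that acts on brain vessels, read 1740, 2000 and 2427 against 53.7 to 59.2, a difference of 5.13 (SE 0.12). Axin2, a common target of WNT signalling, moved little, from 439 to 448 in culture to 524, 471 and 501 (0.17, adjusted p = 0.039). Of 19 WNT genes 14 rose and 4 fell, but 7 of the rises were fixed by the filter, and among the other 12 genes 7 rose and 4 fell. The Notch ligands Dll1 and Dll3 rose by 4.74 and 3.81, and of 14 Notch genes 9 rose, 2 of them fixed by the filter, and 4 fell.

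A pair of keratins rose, while most other genes of the keratin, filament and lamin list fell. Krt8, an epithelial keratin, read 2710, 5289 and 4030 against 16.1 to 18.1, a difference of 7.72 (SE 0.21). Krt18, its partner, read 58.6, 55.3 and 48.7 against 1 read in each culture library, a ratio of 57.2 with a 95% counting interval of 19.3 to 280. Vim, the vimentin gene, fell by 1.81 and Lmna, a nuclear lamina gene, by 1.84. Of 9 keratin, filament and lamin genes 2 rose and 6 fell, beside 39.1% and 33.6% of all genes. The filament genes Nefl and Nefm, counted with the neuronal markers, were higher in the tumours. Nefl had 1 culture read, a ratio of 428 with a 95% counting interval of 76.4 to 16900, or 209 without tumour 1 (36.9 to 8310). Nefm had none and was at least 48.2-fold higher, or 24.7-fold without tumour 1.

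Several genes with the largest falls were also of the tumour class. Ngfr (chr11:95568818-95587735, - strand), the low-affinity neurotrophin receptor, read 9646, 9926 and 10060 in culture and 417, 353 and 361 in the tumours, a fall of 4.71 (SE 0.064, adjusted p = 5.8e-10). Chrdl2, a BMP antagonist, read 119 to 124 in culture and had 3 tumour reads in all, a ratio of 134 with a 95% counting interval of 45.6 to 654. Crabp1, which binds retinoic acid, fell by 4.83, Cfap100 by 5.39 and the scavenger receptor gene Scara5 by 4.92. Lgr6, a receptor for R-spondins, fell by 4.84, and the ectonucleotidase gene Entpd2 by 4.59. In each of these genes the highest tumour value was below the lowest culture value.

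**Figure D3:**
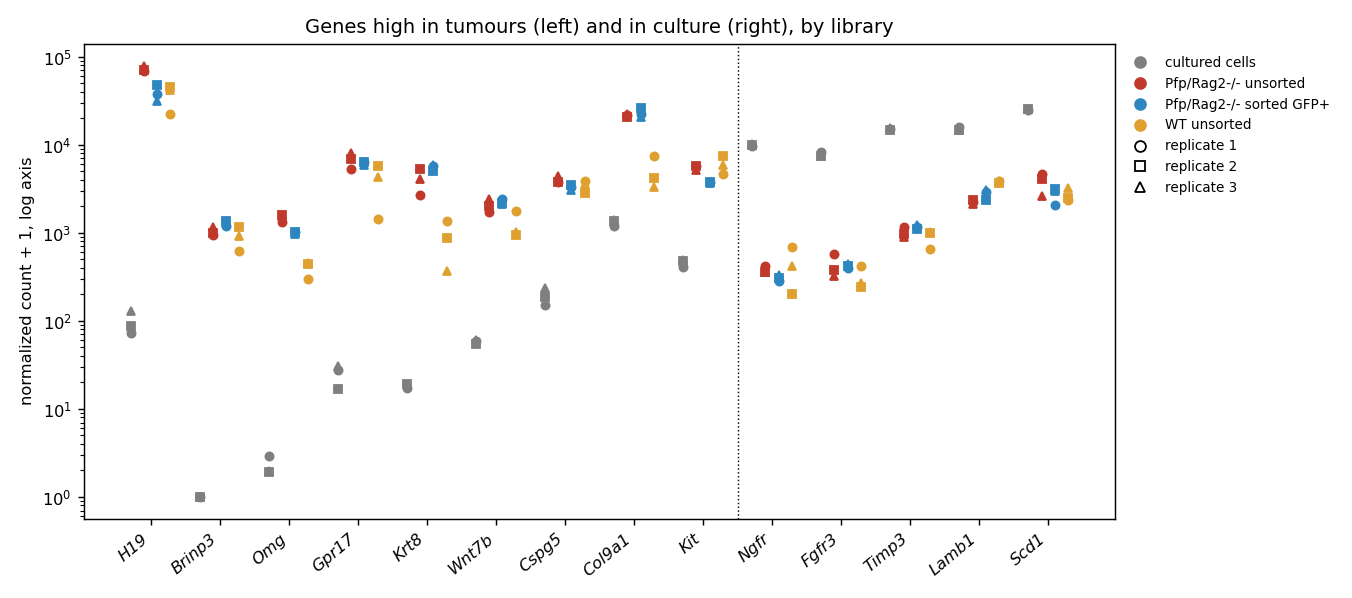
Normalized count + 1 per library (y axis, log axis) of 14 genes (x axis) in culture, unsorted and sorted Pfp/Rag2 -/- tumours and unsorted WT tumours; genes left of the dotted line were higher in tumours and those right of it higher in culture. For H19 and Ngfr the 3 tumour groups lie on the same side of the culture values, with H19 at 68340 to 79060 and Ngfr at 353 to 417 in the unsorted Pfp/Rag2 -/- tumours.

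Genes of the extracellular matrix moved both ways. Over all genes 39.1% were higher and 33.6% lower, with a median of 0.0544. Of 22 collagen genes 11 rose and 10 fell. Col9a1 (chr1:24177610-24252684, + strand), a chain of the cartilage collagen IX, read 21850, 20760 and 22300 against 1206, 1369 and 1385, a rise of 4.04 (SE 0.060, adjusted p = 5.8e-10). Col9a3 rose by 2.95 and Col18a1, the source of endostatin, by 2.64. Col2a1, the main cartilage collagen, fell from 23670 to 26590 to 7445, 7595 and 6988. Col5a1 fell by 3.60, Col6a2 by 3.22 and Col6a1 by 2.64. Of 25 matrix glycoprotein and crosslinking genes 15 fell and 9 rose, with a median of -1.28. Fn1, the fibronectin gene, read 22290 to 23020 in culture and 2814, 3035 and 3977 in the tumours. Lamb1, a laminin chain, fell by 2.76, and Tnc, the tenascin C gene, by 1.31. Among proteases and their inhibitors Timp3 fell by 3.92, from 14800 to 15590 to 1164, 972 and 894, and Mmp2, gelatinase A, fell by 3.21. Of 18 actin and YAP/SRF target genes 12 fell and 4 rose, with a median of -0.763.

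Lipid synthesis was lower as a block. Cells make cholesterol and fatty acids through enzymes whose genes are switched on by SREBP factors when sterols run low. Of 23 genes for cholesterol synthesis and uptake 22 were lower in the tumours, 15 of them at least 2-fold, none was higher, and the median was -1.24 against 0.0544 for all genes, with 33.6% of all genes called lower. Stard4, a sterol carrier gene, read 2039, 2209 and 2381 in culture and 706, 526 and 436 in the tumours, a fall of 2.02 (SE 0.15, adjusted p = 2.3e-06). Every tumour value was below every culture value. Srebf2, the SREBP gene of the cholesterol branch, fell by 1.22. Of 12 fatty acid synthesis genes 11 fell and Acss2 did not pass, with a median of -1.35. Scd1, which puts the first double bond into fatty acids, fell from 24730 to 25590 to 4590, 4076 and 2628. Fasn, the fatty acid synthase gene, read 28680 to 30560 and then 8729, 8782 and 8291.

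Hmgcs1, an early enzyme of the pathway, fell from 2110, 2585 and 2617 to 1444, 987 and 892 (-1.16, SE 0.16). It is shown because it alone among 16 of these genes with a RefSeq promoter holds the sterol element TCACNCCAC, read on both strands from 250 bases before to 50 after the start. The element is in 1.24% of all 32851 RefSeq promoters of GRCm38.p6, and in those of 1.39% of tested genes with a promoter. The 150 bases before its start, chr13:119690201-119690350 (+ strand), are printed 5′ to 3′ with the element in capitals.
Hmgcs1: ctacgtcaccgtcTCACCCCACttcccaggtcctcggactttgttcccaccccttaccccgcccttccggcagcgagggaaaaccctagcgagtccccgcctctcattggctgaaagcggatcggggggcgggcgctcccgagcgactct

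Genes of lipid export rose beside this. Abca1 and Abcg1, pumps that unload cholesterol, rose. Abca1 read 840, 555 and 554 against 5.66 to 18.1, a difference of 5.86, and Abcg1 read 260, 161 and 190 against 1 culture read, a ratio of 647 with a 95% counting interval of 116 to 25600. Both are non-tumour class. Of 14 genes for lipid efflux and storage 7 rose and 6 fell, beside 39.1% and 33.6% of all genes. Among those that fell was the lipid droplet gene Plin2, by 0.93. The list thus had no common direction, and its median of 0.469 became -0.0787 under quantile normalization.

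Division and biosynthesis genes were modestly lower. Over all genes 39.1% were higher and 33.6% lower, with a median of 0.0544. Of 24 mitosis genes 22 fell and none rose, with a median of -0.655. Aurka, a spindle kinase, read 2914 to 3032 in culture and 1522, 1288 and 1545 in the tumours, a fall of 1.05. Mki67, a proliferation marker, read 9466 to 10050 and 8162, 7316 and 9801, which did not pass (adjusted p = 0.051). Of 24 DNA replication genes 16 fell and 2 rose, with a median of -0.355. Of 24 genes of serine synthesis and the ATF4 amino acid response 16 fell and 6 rose. Phgdh, the entry enzyme of serine synthesis, fell by 1.35, while Trib3, a stress-induced pseudokinase, rose by 1.10. Of 12 heat shock genes 10 fell, with a median of -0.994, among them the chaperone genes Hsph1 by 1.87 and Cryab by 3.20. Against sorted GFP+ cells none of the 24 mitosis genes was lower in the unsorted tumours and 9 were higher, beside 11.1% and 19.1% of all genes. The count of higher mitosis genes was 3, 12 and 2 without tumours 1, 2 and 3. It was 6, 3 and 5 without sorted replicates 1, 2 and 3.

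**Figure D4:**
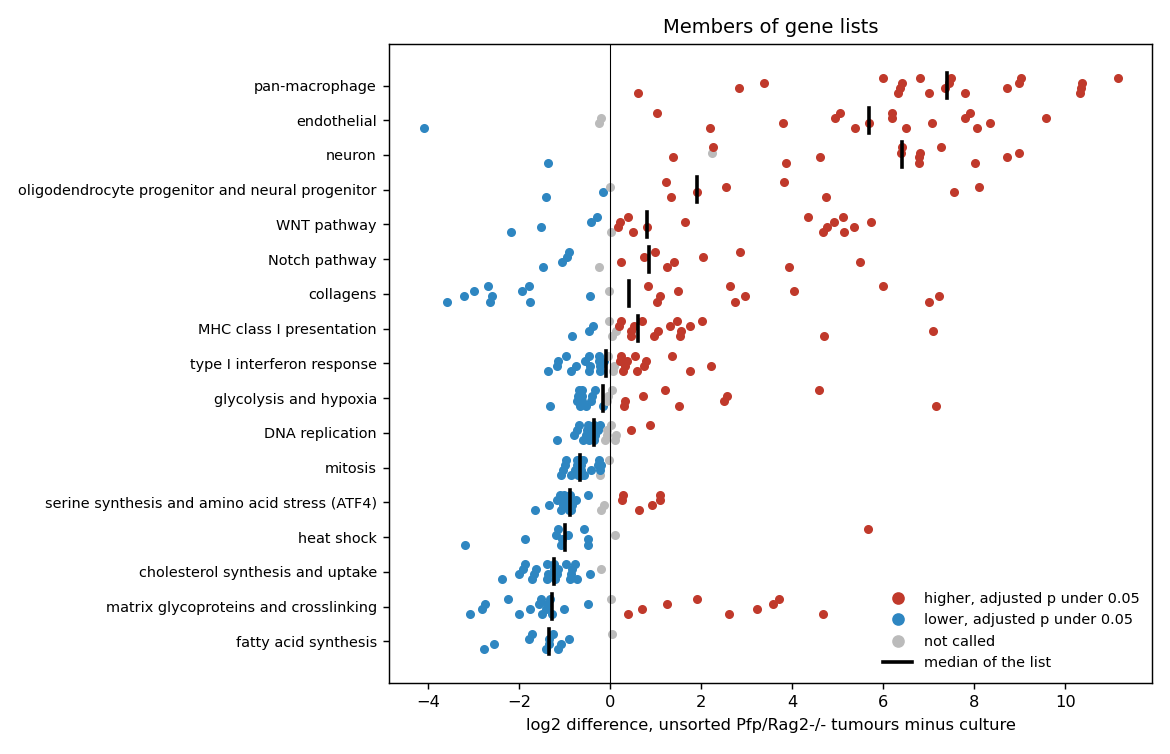
Log2 difference between unsorted Pfp/Rag2 -/- tumours and culture (x axis) for the tested members of 17 gene lists (y axis), coloured by call, with the median of each list as a black bar. All 20 pan-macrophage genes lie right of 0, and 22 of 23 cholesterol genes are called left of it.

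Genes of glycolysis and hypoxia moved both ways. Of 25 genes 9 rose, 3 of them fixed by the filter, and 13 fell, with a median of -0.155. Of all genes 39.1% were higher and 33.6% lower, so the share that rose was near that of all genes. Eno1, enolase, read 18390 to 19310 in culture and 7776, 6749 and 7807 in the tumours, a fall of 1.33. Pgk1 fell by 0.72 and Ldha by 0.43, while the phosphofructokinase gene Pfkl rose by 0.31. Car9, the tumour carbonic anhydrase, read 43.5 to 62.0 in culture and 152 ± 59.1 (SD, n = 3) in the tumours, a rise of 1.50 with no overlap. Vegfa, the vessel growth factor, rose by 1.19, whereas Car12, another carbonic anhydrase, fell by 0.61. Ankrd37 rose by 2.56 with 107, 103 and 103 against 13.2 to 23.9.

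The hypoxia response element core ACGTG, on either strand, stands in 15 of 24 promoters of this list and in 19.6% of all promoters (28.4% of those of tested genes). It is in promoters of genes that rose, such as Car9 and Ankrd37, and of genes that fell, such as Ldha, and these are shown for that contrast. The windows are the 150 bases before the start at chr4:43506876-43507025 (+ strand), chr8:45999851-46000000 (- strand) and chr7:46845654-46845803 (+ strand) in GRCm38.p6, with the core in capitals, and CACGTG where cores on both strands overlap.
Car9: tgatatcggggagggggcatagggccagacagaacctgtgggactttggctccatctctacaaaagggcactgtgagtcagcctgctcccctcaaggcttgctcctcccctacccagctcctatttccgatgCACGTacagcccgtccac
Ankrd37: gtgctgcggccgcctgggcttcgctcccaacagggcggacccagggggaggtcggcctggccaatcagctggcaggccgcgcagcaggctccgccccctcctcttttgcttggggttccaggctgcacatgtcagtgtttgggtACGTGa
Ldha: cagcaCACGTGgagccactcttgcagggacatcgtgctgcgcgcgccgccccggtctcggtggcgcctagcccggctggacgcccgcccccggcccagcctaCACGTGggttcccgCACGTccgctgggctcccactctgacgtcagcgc

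Antigen presentation rose against culture and stood below the unsorted WT tumours. Class I molecules show peptides to killer T cells, and interferon raises them. Of 22 class I pathway genes 16 rose and 3 fell, with a median of 0.608, beside 39.1% and 33.6% of all genes. H2-K1, a class I heavy chain, read 4184, 4333 and 4567 in culture, 13020, 12210 and 12700 in the unsorted Pfp/Rag2 -/- tumours and 31720, 35070 and 36030 in the unsorted WT tumours. It was 1.54 log2 units above culture (SE 0.049) and differed from the WT tumours by -1.44 (SE 0.10, adjusted p = 0.00022). The shared light chain gene B2m read 14150 to 14950 in culture and 15090, 15480 and 16780, which did not pass (adjusted p = 0.075). The chaperone gene Calr fell by 0.84. Class I genes of near-identical sequence share reads, so values of single H2 genes are uncertain.

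Class II genes mark antigen-presenting cells. Of 12 in the list 9 were tested and 7 rose, 4 of them fixed by the filter, with a median of 3.79. Cd74, the class II chaperone, read 6.60 to 12.4 in culture, 812, 723 and 1173 in the unsorted Pfp/Rag2 -/- tumours and 18160 to 32860 in the unsorted WT tumours. Ciita, the class II master regulator, read 0.943 to 1.91 in culture, 30.2, 28.99 and 45.1, and 725 to 1591 in WT tumours. Macrophage markers moved with these genes, at 13550 to 15470 summed in the Pfp/Rag2 -/- and 43830 to 47980 in the WT tumours, and their part in the difference was not tested.

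Interferon genes moved both ways against culture. Type I interferon genes act against viruses in nearly all cells, and interferon-gamma comes from T and NK cells. Of 30 type I response genes 12 rose and 15 fell against culture, with a median of -0.0912 that became 0.0693 under quantile normalization. Isg15, a ubiquitin-like protein, read 6509 to 6991 in culture, 3638, 3654 and 3765 in the unsorted Pfp/Rag2 -/- tumours and 2471 to 2927 in the unsorted WT tumours. Ifit3 fell by 1.17 and the tetherin gene Bst2 by 1.38, whereas Irf7, a transcription factor that amplifies the response, rose by 1.36 and Oas2, an RNA sensor, by 2.22. Of 24 interferon-gamma response genes 12 rose, 3 of them fixed by the filter, and 6 fell, with a median of 0.166. Among the other 21 genes 9 rose and 6 fell, beside 39.1% higher and 33.6% lower of all genes. Cxcl10, a T cell attractant, fell from 3140 to 3369 to 955, 898 and 975 (a difference of -1.78, SE 0.050). Gbp4, an interferon-induced GTPase, rose from 121 to 143 to 255, 253 and 278, and read 4956 to 7670 in the WT tumours. Cultured cells held more Cxcl10, Isg15 and Ifit3 than any of the unsorted Pfp/Rag2 -/- tumours.

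The interferon element is made of 2 GAAA blocks with 2 free bases between them, GAAANNGAAA on either strand. It stands in 11 of 19 type I promoters, 11 of 17 interferon-gamma promoters and 5 of 19 class I promoters. It is in 3.44% of all promoters and in those of 3.86% of tested genes with a promoter. Its bearers went both ways: Ifit1, Ifit3 and Isg15 were lower than in culture and higher than in the unsorted WT tumours, Gbp7 was lower than in both, with the call against culture lost under quantile normalization, and B2m passed only against the WT tumours. The 150 bases before each start are printed 5′ to 3′ with the elements in capitals (overlapping in Isg15), from chr19:34640739-34640888 (+ strand), chr19:34583379-34583528 (+ strand), chr4:156200819-156200968 (- strand), chr3:142530186-142530335 (+ strand) and chr2:122147537-122147686 (+ strand) in GRCm38.p6.
Ifit1: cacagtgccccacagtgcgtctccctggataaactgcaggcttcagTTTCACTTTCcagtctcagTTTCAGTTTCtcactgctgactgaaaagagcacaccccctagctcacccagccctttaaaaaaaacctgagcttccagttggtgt
Ifit3: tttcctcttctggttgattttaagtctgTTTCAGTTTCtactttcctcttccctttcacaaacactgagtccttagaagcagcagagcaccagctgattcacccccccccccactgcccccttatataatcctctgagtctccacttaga
Isg15: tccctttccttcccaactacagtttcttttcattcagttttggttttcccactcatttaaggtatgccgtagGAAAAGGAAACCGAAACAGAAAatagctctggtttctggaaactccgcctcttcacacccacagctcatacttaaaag
Gbp7: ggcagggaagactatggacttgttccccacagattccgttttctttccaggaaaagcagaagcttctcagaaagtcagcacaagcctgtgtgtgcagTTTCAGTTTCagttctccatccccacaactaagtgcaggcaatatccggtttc
B2m: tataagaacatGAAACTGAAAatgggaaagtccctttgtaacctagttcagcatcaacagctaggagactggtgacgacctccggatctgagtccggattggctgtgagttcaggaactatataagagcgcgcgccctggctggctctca

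Against the unsorted WT tumours 15448 genes could be tested, and 2294 (14.8%) were higher and 2326 (15.1%) lower in the Pfp/Rag2 -/- tumours. Of the 2928 genes at least 2-fold above culture, 667 were above the WT tumours, 462 below and 1799 without a call. All 22 class I genes, all 12 class II genes and all 25 tested interferon-gamma genes were lower than in WT tumours, with medians of -1.63, -4.34 and -2.49. Among type I genes 15 were higher and 4 lower, with a median of 0.436. Of 20 pan-macrophage markers 19 were lower. Collagen genes had 11 higher and 3 lower. Ppfia2, a tumour-class synaptic scaffold gene, read 460, 577 and 571 against 89.5 to 98.4 in WT tumours and 0.943 to 1.91 in culture. Scaling to tumour-class genes shifted the median of this comparison by -0.172 and left 1265 higher and 3788 lower, and leaving out Pfp/Rag2 -/- tumour 2 left 983 higher and 1297 lower.

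The sorted GFP+ cells of the same host gave a direct test of unsorted against sorted libraries, since the culture level cancels. The labels do not say whether these libraries share mice, so differences between tumours can be mixed with those of sorting. Sorted replicate 3 had 11, 18, 8 and 32 reads of the Y-linked genes Ddx3y, Kdm5d, Uty and Eif2s3y. Each had at most 1 read in any other sorted or unsorted library of this host, so that library differed from every unsorted tumour. The reason was not tested. Of 15324 genes tested, 2926 (19.1%) were higher in the unsorted tumours and 1699 (11.1%) were lower. The split was 63.3% higher as deposited and 49.2% to 52.5% higher under the other scalings, so it has no certain direction. Of the 2928 genes at least 2-fold above culture 1171 were above sorted cells, 122 below and 1635 without a call. In the non-tumour class 387 of 1111 such genes were above sorted cells and 706 had no call. In the tumour class 137 of 493 were above, 47 below and 309 without a call. Of 1137 genes at least 2-fold below culture 991 could be tested, and 123 were above sorted cells, 153 below and 715 without a call. A missing call does not show equal levels.

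Neuronal RNA set the unsorted tumours apart from sorted cells. Of 15 neuronal genes 11 were higher and none lower, with a median of 3.79, and 3.19 without tumour 1. Of the 20 synaptic genes 18 were higher, with a median of 3.67, and 3.08 without tumour 1. Gad2 had 3 reads in all sorted libraries, a ratio of 513 with a 95% counting interval of 175 to 2490, or 332 without tumour 1 (113 to 1610). Penk, the enkephalin precursor of striatal neurons, read 1024, 374 and 360 in the unsorted tumours and had 1 read in the sorted libraries, a ratio of 1920 with an interval of 345 to 76000, or 1200 without tumour 1 (215 to 47400). Of 14 astrocyte genes 9 were higher, with a median of 2.14, or 8 higher, 1 lower and 1.43 without tumour 1.

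Macrophage and vessel RNA depended on sorted replicate 1. Of 20 pan-macrophage markers 3 were called higher in the unsorted tumours with all libraries and 19 (with 1 lower) without sorted replicate 1, in which their summed level was 16350 against 3572 and 3538 in the other two. Without any other single library none was called. Of 19 endothelial markers 4 were higher with all libraries and 14 without that replicate, and 1 without any other single library. For class II genes the counts were 0 and 7. Cholesterol genes had 9 lower in unsorted tumours, 15 without sorted replicate 1, 12 without tumour 1 and 2 without any other single library.

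Among the progenitor, WNT and matrix genes described above, some differed from sorted cells and others had no call. Col9a1 read 22290, 26080 and 20570 in sorted cells, a difference of -0.08 for unsorted minus sorted (adjusted p = 0.56). Ngfr read 279, 303 and 333 in sorted cells, against 417, 353 and 361 unsorted, without a call (adjusted p = 0.061). Myrf, Olig1, Olig2 and Wnt7b had no call, with differences between -0.13 and 0.03. H19 was 0.92 higher in the unsorted tumours (adjusted p = 0.0067) and Kit 0.57 higher. Of 22 collagen genes 10 were lower in unsorted tumours and none higher, and Col2a1 read 18130 to 18800 in sorted cells against 6988 to 7595.

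Immediate early genes are switched on within minutes of a stimulus, and here they set sorted cells apart from unsorted tumours. Of 24 genes 10 rose and 8 fell against culture, with a median of 0.0739, near the 39.1% and 33.6% of all genes. In unsorted tumours 20 of 24 were lower than in sorted cells, beside 11.1% of all genes. None was higher, and the median was -1.85. Fos read 2278, 2560 and 2252 in the unsorted tumours, 29740, 33100 and 29820 in sorted cells and 1699 to 1860 in culture. Fosb (chr7:19302696-19310051, - strand) read 190, 170 and 168, against 9817, 9435 and 8093 in sorted cells and 69.8 to 86.8 in culture. It was 1.20 above culture and differed from sorted cells by -5.68 (SE 0.086, adjusted p = 4.3e-07). Egr1, Junb and Jun, transcription factors of the same response, differed from sorted cells by -2.41, -2.27 and -2.10. Every one of these 5 genes was lower in all unsorted tumours than in any sorted library. Summed over the 24 genes, the level was 28140 to 33540 in the unsorted tumours and 128000 to 141700 in their sorted GFP+ counterparts. In cells sorted from WT tumours it was 128300 to 235700 (GFP+) and 665900 to 746900 (GFP-). It was 29440 to 30280 in culture, which the labels also give as sorted but which was not taken from a tumour. What raised these genes was not tested. The element TGACGTCA, on either strand, was in promoters of 2 of 19 immediate early genes. It was in 1.79% of all promoters and in those of 3.53% of tested genes with a promoter.

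**Figure D5:**
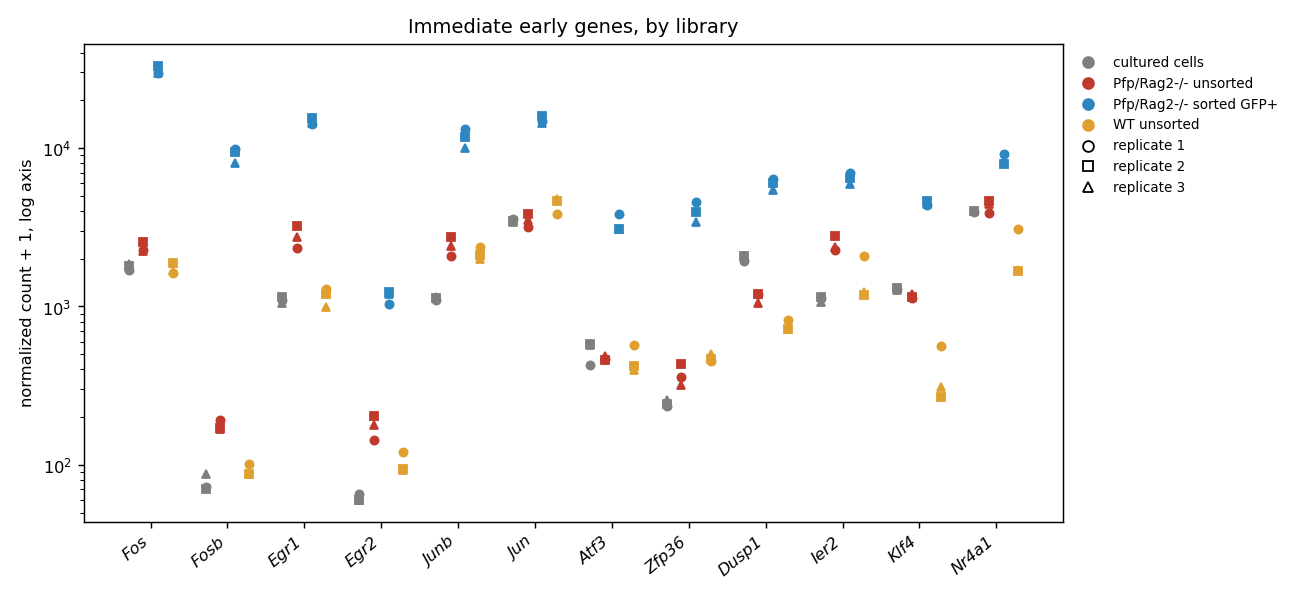
Normalized count + 1 per library (y axis, log axis) of 12 immediate early genes (x axis) in culture, unsorted and sorted Pfp/Rag2 -/- tumours and unsorted WT tumours. The sorted GFP+ libraries lie above the other groups for every gene drawn, with Fos at 29740 to 33100 against 2252 to 2560 in the unsorted tumours.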

How the data were processed

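Per the submitters' processing notes, reads were aligned with STAR 2.5.2b to GRCm38, and DESeq2 was used. Counting tool and annotation release: not given in the sources used here. The deposited signal, a normalized count per gene, is the authors' read count divided by 1 factor per library. Whole reads were recovered from it: 100.0% of values were whole within 0.1 reads. Symbols and positions came from GENCODE vM21 (48435 of 48795 IDs matched), and promoters from RefSeq, GRCm38.p6.

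Groups came from the labels. Each of 3 comparisons used its own 6 libraries, genes at or above 10 in at least 3, log2(value + 1), limma 3.58.1 (R 4.3.3, lmFit with eBayes trend, two-sided) and Benjamini-Hochberg adjustment over all genes tested, with no other covariate. Simulated data with known changes were recovered before use. The 52 lists (884 genes) and the genes studied were chosen with earlier results of these data known. Named genes were the 10 highest and 10 lowest called genes with separate groups and a mean of at least 100, the same within the tumour class, up to 3 called members each way per list, other list members, and the 5 largest each way against sorted cells and WT tumours. Lists are described by counts and medians, without a set test.

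A gene at 0 reads in 1 group has a lower bound set by 3 reads per library. Intervals for 1 to 3 reads are exact binomial (Clopper-Pearson, 95%) on reads without molecular identifiers and cover counting error only. Alternatives were TMM factors, quantile normalization, scaling to tumour-class genes, edgeR 4.0.16 and DESeq2 1.42.0 on recovered reads, a fit of all 18 libraries, other filters, log2(value + 10), a replicate block and each library left out.
On the recovered reads edgeR's quasi-likelihood test called 5840 genes higher and 4976 lower than in culture. A few genes that the naming rule covers are not reported here.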

Additional observations from a re-analysis of the deposited data

Results flagged for a closer look

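Some differences from culture were not the same in sorted cells or in the other host, by direct limma tests (adjusted p under 0.05) of unsorted Pfp/Rag2 -/- tumours against those groups. Higher than culture and higher still than sorted cells, in log2 units, were Penk by 8.70, Scn4b by 8.49, Gad2 by 7.90 and Scg2 by 7.08, all of them genes of neurons and all highest in tumour 1. Penk, Gad2 and Scg2 had 1, 3 and 3 reads in the sorted libraries, so those fitted values are not bounds. Higher than culture and lower than sorted cells were Fosb (-5.68), Fos (-3.71), Zfp36 (-3.42), Egr2 (-2.73) and Klf2 (-2.67). Lower than culture and higher than sorted cells were Gprin3 (3.35), Aldh1l1 (3.01), Rasgef1c (2.18), Ly6c1 (1.95) and Dclk1 (1.81). Aldh1l1, a folate enzyme of astrocytes, read 591 to 672 in culture, 393, 243 and 187 in unsorted tumours and 25.6 to 37.8 in sorted cells. Lower than both were Nfkbiz (-2.78), Ccn1 (-2.52), Dusp1 (-2.37), Klf4 (-1.94) and Btg2 (-1.75), and the differences of Nfkbiz, Klf4 and Btg2 from culture were lost under some alternatives.

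Against unsorted WT tumours the largest positive differences among genes that differed from culture were Pla2g2f (3.53), Pcdhb9 (3.13), Ramp1 (3.08), Gabra2 (2.97) and Asic4 (2.75). The largest negative ones were H2-Eb1 (-5.24), Cd74 (-4.90), H2-Aa (-4.81), Gbp4 (-4.63) and H2-Ab1 (-4.57). Ramp1, which helps the CGRP receptor reach the cell surface, read 617, 977 and 913 in the unsorted Pfp/Rag2 -/- tumours, 93.2 to 97.8 in the WT tumours, 612 to 713 in sorted GFP+ cells and 3.77 to 9.45 in culture.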

How the results depend on the processing

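Of 278 genes followed under 16 alternatives, 253 kept direction and call in all of them, 23 lost the call in at least 1 and 5 turned, and 1593 of 1664 list counts stayed within 1.5 times. The 5 turned under quantile normalization, to -0.64 for Cd3g, 0.12 for Sox2, -0.88 for Fas, -0.055 for Ctsk and -0.036 for Trf, and the cause was not tested. Genes at least 2-fold higher than culture numbered 1701 with a filter at 50 and 4434 with none, since fewer or more low genes were tested, and the non-tumour class had 578 with a filter at 50. Quantile normalization turned the balance of 2-fold differences from 2928 higher and 1137 lower to 1998 higher and 2551 lower, with 311 in the non-tumour, 1457 in the shared and 552 in the tumour class, and 545 higher in the shared class. With the source class set at 2-fold, 250 non-tumour genes were lower and the shared class had 443 higher and 309 lower; at 8-fold the values were 78 non-tumour lower, 1344 shared higher, and 299 higher and 188 lower in the tumour class. Against sorted cells a fit of all 18 libraries left 1630 higher and 952 lower. Against WT tumours scaling to tumour-class genes left 1265 higher and 3788 lower. Without each library in turn, calls against culture ranged from 5460 to 5800 higher and 4595 to 5041 lower, at least 2-fold from 2885 to 2965 higher and 1109 to 1166 lower. By class the 2-fold ranges were 1100 to 1120 and 137 to 149 (non-tumour), 847 to 913 and 555 to 588 (shared), and 486 to 499 and 330 to 335 (tumour). Calls against sorted cells ranged from 1886 (without sorted replicate 3) to 3218 higher and from 1038 (without sorted replicate 2) to 1546 lower, and against WT tumours from 983 to 3092 higher and 1297 to 3050 lower. Same-numbered libraries did not deviate together in the main comparison (r of -0.0129, 0.0148 and 0.00762), so the numbers do not pair them, and a replicate block gave 5760 higher and 4915 lower. Depth limits genes under about 10 normalized counts, which were left out.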
